A study of Mus musculus with 2 samples.

Results

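The comparison set Cd69-high against Cd69-low cells among single CD4 T cells that recognise the 2W1S peptide. The cells were chosen by their deposited log2 value of Cd69 alone: within the March capture and within the April capture they were ranked by that value, and the highest tertile was set against the lowest tertile of each month, with ties taken in column order. The classes hold 118 of 178 cells, 59 Cd69-high and 59 Cd69-low. March gave 27 high, 28 middle and 27 low cells of 82, and April gave 32 of each of 96. Since Cd69 chose the classes, its own level is a description and was not tested.

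The mice were of genotype C57BL/6, the tissue was spleen and peripheral lymph nodes, and the treatment was CA-2W1S colonization, that is, Candida albicans, a yeast that lives in the gut, engineered to carry the 2W1S model antigen. T cells able to bind that peptide were purified by flow cytometry and sequenced one by one on the Fluidigm C1 with SMART-Seq v4, a whole-transcript chemistry without molecular identifiers. Every group used here therefore carries the same genotype and the same treatment, the classes were set by measured Cd69 alone, and no uncolonized animals were analysed here. The labels do not give the number of mice behind a capture. The p-values and standard errors therefore rest on just the spread between 2 captures, part of which may be technical. The test takes that spread mostly from all genes together, so a printed SE is not the gene's own spread between March and April.

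Cd69 encodes a C-type lectin that T cells put on their surface soon after the antigen receptor or an interferon receptor is triggered. It binds S1pr1, the receptor through which T cells sense sphingosine 1-phosphate and leave lymphoid organs, and takes it off the cell surface, so that stimulated cells are held in the node. Its transcript belongs with those of the immediate early genes, a set of transcription factors, phosphatases and RNA-binding proteins that are transcribed within minutes of stimulation and switched off again by their own products.

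The deposited log2 values behave as TPM values (transcripts scaled to a common total per cell) with 1 added before the log, and "linear value" below means the number before that addition and log. In March the Cd69-high cells ran from 6.59 to 11.39 on the log2 scale with a median of 8.44, and in April from 7.64 to 11.92 with a median of 9.25. Cd69-low cells ran from 0 to 0.70 in March, where 17 were at 0, and from 0 to 1.22 in April, where 11 were at 0. A linear value below 1 was found in all 27 low cells of March and in 27 of 32 in April. The lowest tertile thus mixes cells at 0 with cells at a low Cd69 value above 0. At the upper boundary the values just inside and just outside were 6.59 and 6.4 in March and 7.64 and 7.53 in April. At the lower boundary they were 0.70 and 0.81 in March and 1.22 and 1.25 in April, so cells on both sides of each boundary were close to one another. The plot of Cd69 in every cell shows a continuous climb in both captures.

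**Figure D1:**
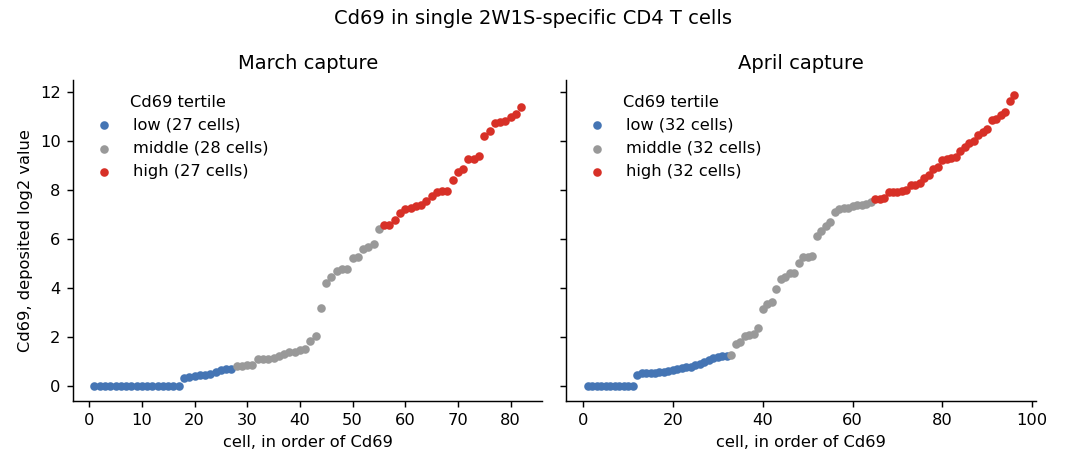
Deposited log2 value of Cd69 (vertical axis) for each cell in rank order (horizontal axis), March on the left and April on the right; colours mark the low, middle and high tertiles. The boundaries at 6.59 and 7.64 for the high class fall within a continuous run of values, and 17 March and 11 April cells lie at 0.

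Both classes carried the transcripts that define CD4 T cells. Cd3d, a chain of the antigen receptor complex, reached a linear value of 1 in 100% of high and low cells of both captures. Cd4, the coreceptor of helper T cells, reached it in 74.1% of high and 66.7% of low cells in March (exact Clopper-Pearson 95% intervals 53.7 to 88.9 and 46.0 to 83.5) and in 71.9% and 68.8% in April (53.3 to 86.3 and 49.99 to 83.9); all such intervals cover counting error only. Median genes detected were 5415 in high and 5078 in low cells of March, against 4924 and 4916 in April. The median share of the mitochondrially encoded transcripts was 6.76% in high and 8.67% in low cells of March and 8.89% and 8.17% in April, and 3 cells above 50% were all in the March low class. The runs named in the column headers were not evenly split: Mar1 gave 7 high and 11 low cells and Mar17 20 and 16, while Apr13 gave 14 and 18 and Apr21 18 and 14. No 2 cells held identical values, and the captures shared 0 cells.

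No gene passed the test between the classes, from which Cd69, the gene that set them, was left out. Cell values were averaged per capture and class, and the 4 averages were compared with limma with the capture as a block, over 10794 genes above 0 in at least 10% of cells. The count past an adjusted p of 0.05 was 0 higher and 0 lower (0% of genes), the smallest adjusted p was 0.998, and 501 genes had an unadjusted p under 0.05 (4.64%), against 539.7 if p-values were uniform. Of those 501, 376 were higher and 125 lower in Cd69-high cells. The median standard error of a difference was 0.37, and 373 genes differed by at least 1 on the log2 scale. All values given for other genes below are therefore differences of mean log2 values, high minus low, that did not pass.

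The 2 captures gave uncorrelated differences. Across the 10794 genes the March and April differences had a Pearson correlation of 0.0013 (genes are not independent replicates) and the same sign in 49.1%. Means were higher in Cd69-high cells in both captures for 3224 genes (29.9%) and lower in both for 2077 (19.2%), and they were ordered low, middle, high in both for 448 (4.15%). The 100 genes with the largest March difference had a median of 2.47 in March and 0.13 in April, where 60 of them were higher in Cd69-high cells against 46.8% of all genes. The 100 with the lowest March difference had a median of -1.38 in March and 0.10 in April, where 57 were higher. The 100 with the largest April difference had a median of 1.69 in April and 0.43 in March, where 75 were higher against 63.7% of all genes. The 100 with the lowest April difference had a median of -1.75 in April and 0.54 in March, where 71 were higher. Genes at the 2 ends of 1 capture were thus near one another in the other capture. The median over all genes was 0.16 in March and -0.03 in April, so March values lie slightly above 0 as a whole. The plot of the 2 captures against each other shows this round cloud, with Rgs1, Ccr7 and several immediate early genes towards its upper right and Mllt3 at its lower left.

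**Figure D2:**
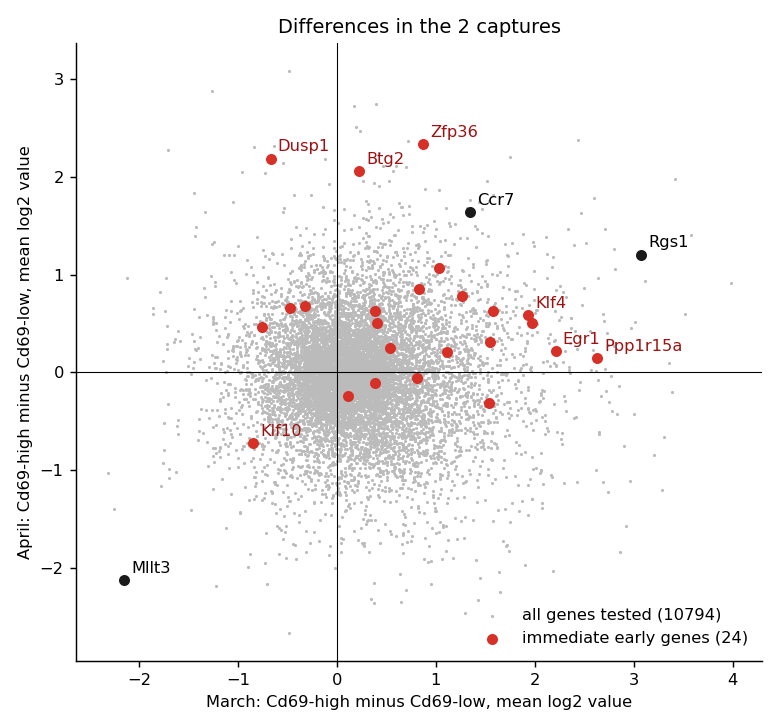
Difference of mean log2 value, Cd69-high minus Cd69-low, in March (horizontal) against April (vertical) for 10794 genes; red points are the 24 immediate early genes tested and black points 3 named genes. The cloud has no slope (r = 0.0013); Mllt3 lies at -2.15 and -2.13, and Rgs1 at 3.07 and 1.21.

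The 8 genes with the smallest p among those higher in both captures were 1 without a symbol and Hint2, Ptbp2, Ssb, Zfr, Cox5b, Klf4 and Utp6. Ssb, the La protein that binds new RNA polymerase III transcripts, ran in March from 0 to 11.08 in high cells (median 8.40) and from 0 to 10.98 in low cells (median 1.95). In April its range was 0 to 12.36 (median 8.66) and 0 to 10.66 (median 3.50). The ranges overlapped fully while the middle of the high class lay several units above that of the low class in both captures. Its difference was 3.41 in March and 1.98 in April, 2.70 ± 0.74 (SE) over both. Zfr, a zinc finger RNA-binding protein, had medians of 5.30 in high and 0.20 in low cells of March, within ranges of 0 to 11.61 and 0 to 8.83. Its April medians were 1.76 and 1.13 (ranges 0 to 11.98 and 0 to 10.46), and the difference was 3.99 in March and 0.92 in April. Cox5b, a subunit of cytochrome c oxidase, differed by 3.58 and 1.41. Hint2, a mitochondrial nucleotide hydrolase, reached a linear value of 1 in 5 high and 3 low cells of March and in 8 high and 0 low cells of April. All 32 low April cells were at 0 for Hint2, and no fold is given.

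Mllt3, which encodes the AF9 subunit of the super elongation complex, had the smallest p among the genes lower in Cd69-high cells of both captures. In March its high cells ran from 0 to 10.17 (median 0.92) and its low cells from 0 to 11.54 (median 2.04). In April high cells ran from 0 to 7.96 (median 0.60) and low cells from 0 to 9.80 (median 0.62). The classes overlapped, and the upper part of the range was thinner among Cd69-high cells. The difference was -2.15 in March and -2.13 in April, -2.14 ± 0.54 (SE), and the means were ordered high, middle, low in both captures (1.59, 2.75 and 3.74, then 1.02, 2.68 and 3.15). The other 7 with the smallest p in that direction were Cdkn2aipnl (-1.82), Commd9 (-0.94), Adpgk (-0.83), Dpp8 (-0.61), Hdhd5 (-1.36), Vav1 (-1.44) and Rad9a (-0.88). Vav1, the exchange factor that couples the antigen receptor to Rac, had a Spearman rho with Cd69 over cells of only 0.01 in March and -0.07 in April. Its medians were 0.37 in high and 0.23 in low cells of March and 0.37 and 0.55 in April, so its difference in means came from the upper end: low cells reached 11.11 and 10.61, high cells 6.54 and 6.18.

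The immediate early genes were, on balance, higher in Cd69-high cells in both captures, though none passed. Of 29 genes listed 25 were in the table and 24 passed the filter on detection. Of those 24, 15 (62.5%) were higher in both captures and 1 was lower in both, against 29.9% and 19.2% of all genes tested. The list's median difference was 0.82 in March, 0.51 in April and 0.71 over both, against 0.16, -0.03 and 0.06 for all genes. It was above 0 in each of the 4 runs taken alone: 1.14 in Mar1, 0.39 in Mar17, 0.24 in Apr13 and 0.59 in Apr21. That does not set the list apart, and no median over all genes was computed by run. The egress and homing list described below was at 0.19, 0.28, 0.28 and 0.18 in the same runs. The NF-kB, residency, costimulation, regulatory T cell and proliferation lists were also above 0 in each run. The immediate early value over both captures was 0.56 without Mar1 and 0.57 without the 3 cells of high mitochondrial share, and 13 members were then higher in both. On the log2 of mean linear values it was 1.17. Averaged over the 24 genes in each cell, March high cells ran from 1.32 to 5.89 (median 2.62), middle cells from 0.79 to 4.75 (median 2.31) and low cells from 0.64 to 3.38 (median 2.17). April high cells ran from 1.28 to 4.94 (median 3.05), middle cells from 1.25 to 4.01 (median 2.70) and low cells from 0.74 to 3.96 (median 2.49). The medians are in the order of the tertiles in both captures, and the ranges overlap broadly.

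Klf4, a zinc finger factor that restrains T cell division, was the member with the smallest p. In March it ran from 0 to 8.93 in high cells (median 0.20), from 0 to 8.48 in middle cells and from 0 to 0.76 in low cells, both with a median of 0. In April it ran from 0 to 9.41 in high, 0 to 9.85 in middle and 0 to 3.73 in low cells, all with a median of 0. A linear value of 1 was reached by 8 of 27 high cells in March (29.6%, interval 13.8 to 50.2) against 0 of 27 low cells, where the interval allows up to 12.8%. In April the share was 9.38% of high and 6.25% of low cells. Klf4 is thus a gene of few cells, with a difference of 1.93 in March and 0.59 in April and 1.26 ± 0.365 (SE) over both. It lies on chromosome 4 from 55527143 to 55532466 (mm10, GENCODE vM21, minus strand). Klf4 and Btg1, an antiproliferative factor, were the 2 members of the list with means ordered low, middle, high in both captures.

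The Egr factors, which drive transcription downstream of the antigen receptor, were higher mainly in March. Egr1 ran from 0 to 12.85 in March high cells (median 1.53) and from 0 to 11.07 in low cells (median 0.78), and a linear value of 1 was reached by 81.5% of high cells (61.9 to 93.7) and 40.7% of low cells (22.4 to 61.2). In April the medians were 0.56 and 0.51 within ranges of 0 to 11.48 and 0 to 10.70, and the shares were 31.2% and 37.5%. The share was higher among high cells in March and lower in April; cells of 1 capture share their preparation, and neither the classes nor the captures were tested on these shares. The difference in means was 2.21 in March and 0.22 in April. Egr2 differed by 1.55 and 0.31. Ier2, a nuclear immediate early protein, had a median of 1.19 in high and 0.40 in low cells of March and of 0 and 0.24 in April, with differences of 1.97 and 0.51. Myc, the growth regulator, differed by 1.27 and 0.78.

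Fos, a subunit of the AP-1 factor, was abundant in every class, with medians of 5.99 in high and 4.77 in low cells of March and 6.06 and 4.03 in April. Its differences of 1.03 and 1.07 were nearly equal in the captures, with a standard error of 0.72. Its partner Jun differed by 0.11 and -0.24, and Junb by 1.12 and 0.21. Nr4a1, an orphan nuclear receptor widely used as a readout of antigen receptor signalling, was at a median of 0 in both classes of both captures and differed by 0.41 and 0.51. The phosphatase Dusp1 differed by -0.67 in March and 2.19 in April, and Dusp2 by 0.83 and 0.85. Klf10 was the member lower in both, at -0.85 and -0.72. Outside the rule for named genes, and chosen after their values were seen, Zfp36, an RNA-binding protein that shortens cytokine messages, differed by 0.87 and 2.33, Btg2 by 0.22 and 2.06, and Ppp1r15a by 2.63 and 0.15. Their larger value thus came from April for Zfp36 and Btg2 and from March for Ppp1r15a.

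**Figure D3:**
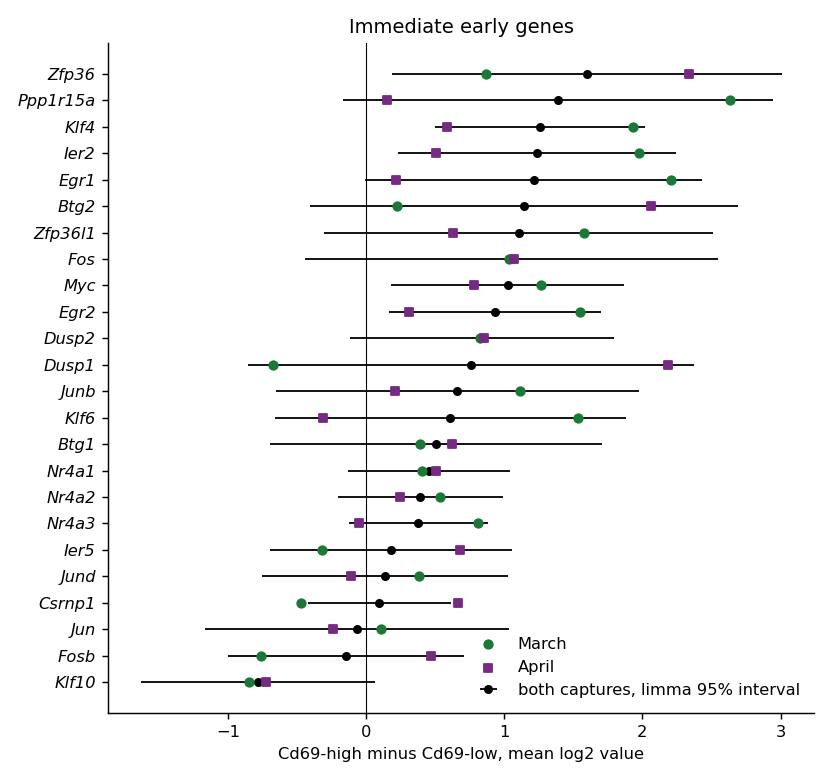
Cd69-high minus Cd69-low difference of mean log2 value (horizontal axis) for each of the 24 immediate early genes tested; green circles are March, purple squares April, and black points with lines the value over both captures with its limma 95% interval. Members with both captures to the right of 0 number 15, and Klf10 alone has both to the left.

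Promoter sequences are shown for 2 immediate early genes and for Tnfaip3 of the NF-kB group described below, because these windows hold matches to the motifs of the factors named above. They run from 250 bases before to 50 after a RefSeq start (GRCm38.p6), 5′ to 3′ on the gene's strand: Klf4 at chr4:55532426-55532725 on the minus strand, Nr4a1 at chr15:101266596-101266895 on the plus strand and Tnfaip3 at chr10:19015361-19015660 on the minus strand. Capitals mark EGR matches (GCGNGGGCG) in Klf4, an EGR match and a kappaB site in Nr4a1, and an AP-1 match (TGANTCA) and 2 kappaB sites in Tnfaip3, on either strand and with no overlaps. A second Tnfaip3 start in the table, with its window at chr10:19011914-19012213, had 0 matches to the motifs searched.
Klf4: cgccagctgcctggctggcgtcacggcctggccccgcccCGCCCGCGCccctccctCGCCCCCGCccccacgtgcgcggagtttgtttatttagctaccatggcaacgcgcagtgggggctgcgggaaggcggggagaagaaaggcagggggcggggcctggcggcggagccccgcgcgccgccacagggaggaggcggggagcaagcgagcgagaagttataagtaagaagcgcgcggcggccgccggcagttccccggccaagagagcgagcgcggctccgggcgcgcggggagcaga
Nr4a1: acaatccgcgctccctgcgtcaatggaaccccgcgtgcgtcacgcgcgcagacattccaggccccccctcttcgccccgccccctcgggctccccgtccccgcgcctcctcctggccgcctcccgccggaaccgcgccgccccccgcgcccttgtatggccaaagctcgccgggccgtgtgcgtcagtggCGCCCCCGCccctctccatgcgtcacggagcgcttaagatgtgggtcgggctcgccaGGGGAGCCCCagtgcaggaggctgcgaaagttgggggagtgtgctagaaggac
Tnfaip3: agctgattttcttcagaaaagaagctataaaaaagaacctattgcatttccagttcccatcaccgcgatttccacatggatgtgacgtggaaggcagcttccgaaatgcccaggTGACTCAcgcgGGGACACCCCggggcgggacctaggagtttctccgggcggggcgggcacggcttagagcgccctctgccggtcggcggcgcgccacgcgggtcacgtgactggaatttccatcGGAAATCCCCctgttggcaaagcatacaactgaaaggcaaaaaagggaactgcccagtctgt

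Of the 24 immediate early genes tested, 20 were matched in the promoter table. The EGR motif was in 7 of these (35.0%), against 11.7% of 7696 matched tested genes and 6.27% of all 27025 genes with a promoter. The cyclic AMP response element (TGACGTCA) was in 3 (15.0%, against 3.69% and 2.03%), the kappaB site in 4 (20.0%, against 12.2% and 9.55%), AP-1 in 2 (10%, against 6.21% and 8.97%) and the CArG box, the site of serum response factor, in 2 (10%, against 1.52% and 1.81%). These are matches of letters in a fixed window and describe sequence only.

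Among 20 tested genes of NF-kB and calcineurin feedback, 9 were higher in both captures (45.0%) and 1 was lower in both. Over all genes tested the shares were 29.9% and 19.2%. Against 0.16 and -0.03 for all genes, the list's medians were 0.41 in March and 0.26 in April. By run the median was 0.66 in Mar1, 0.14 in Mar17, 0.36 in Apr13 and 0.30 in Apr21. Tnfaip3, the deubiquitinase A20 that shuts NF-kB signalling off, ran in March from 0 to 11.24 in high cells (median 1.57) and from 0 to 11.20 in low cells (median 0.40). In April it ran from 0 to 11.30 (median 5.15) and from 0 to 12.45 (median 1.92). The ranges coincide and the medians lay higher in the Cd69-high class in both captures. The difference was 1.54 in March and 1.76 in April, 1.65 ± 0.64 (SE), with means ordered low, middle, high in both (2.31, 3.46 and 3.85, then 3.26, 4.06 and 5.02). Rela, the p65 subunit itself, differed by 1.53 and 1.39 and was ordered in the same way. Bcl2a1b, a survival gene that NF-kB induces and one of several near-identical copies whose reads the counting could split, differed by 2.20 and 0.63. Nfkbia, the inhibitor IkB-alpha, differed by 0.52 and 1.06, with a value over both of -0.47 when cells with any Cd69 were set against cells at 0. Birc3 was the member lower in both, at -0.57 and -0.25.

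Genes of tissue residency and of exit from the node were examined because Cd69 acts between them. Of 13 residency genes tested, 7 were higher in both captures (53.8%) and 1 lower in both, against 29.9% and 19.2% of all genes. Against 0.16 and -0.03 for all genes, the residency medians were 0.56 in March and 0.17 in April. The March value was carried mainly by 1 run: the median was 1.46 in Mar1 and 0.23 in Mar17, against 0.22 in Apr13 and 0.01 in Apr21. Rgs1, a regulator that dampens chemokine receptor signalling, ran in March from 0 to 11.31 in high cells (median 5.06) and from 0 to 11.36 in low cells (median 0.96). In April it ran from 0 to 11.77 (median 1.44) and from 0 to 10.59 (median 0.90). Cells with high Rgs1 occurred in every class, and the median was highest among the Cd69-high cells of March. A linear value of 1 was reached by 70.4% of high and 48.1% of low cells in March (49.8 to 86.2 and 28.7 to 68.1) and by 59.4% and 46.9% in April (40.6 to 76.3 and 29.1 to 65.3). The difference was 3.07 in March and 1.21 in April, 2.14 ± 0.64 (SE), and the means were ordered low, middle, high in both captures. P2rx7, the receptor for extracellular ATP, differed by 1.77 and 0.34. Itgae, the integrin alpha E chain CD103 of epithelial residency, reached a linear value of 1 in 2 high and 0 low cells of March and in 1 of each in April. Cd44, the adhesion receptor of antigen-experienced cells, was the member lower in both, at -0.63 and -1.35.

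The 20 egress and homing genes had medians of 0.24 in March and -0.06 in April, with 6 higher in both (30%) and 4 lower in both (20.0%), shares next to those of all genes. S1pr1, the receptor that the Cd69 protein binds, ran in March from 0 to 10.31 in high cells (median 1.14) and from 0 to 10.52 in low cells (median 0.47). In April it ran from 0 to 10.49 (median 0.41) and from 0 to 9.46 (median 0.63). The classes overlapped fully, and the median was higher in the high class in March and lower in April. Its difference was 0.93 and 0.25, 0.59 over both with a 95% interval from -0.51 to 1.69. It was -0.35 when the upper and lower 50% of cells were compared, so its direction depended on where the classes were divided. Klf2, the factor that drives S1pr1 transcription and that the series names in its title, reached a linear value of 1 in 29.6% of high and 37.0% of low cells in March and in 34.4% and 15.6% in April. The difference was -0.62 in March and 0.67 in April, 0.02 over both with an interval from -0.99 to 1.04, and it changed sign under several settings. Il7r, the interleukin 7 receptor, differed by -0.70 and 0.97.

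Ccr7, the chemokine receptor that guides T cells into the node and its T cell zone, had the smallest p of the list. Its March values ran from 0 to 12.09 in high cells (median 2.16) and from 0.39 to 10.73 in low cells (median 1.07), and its April values from 0 to 11.26 (median 0.51) and from 0 to 9.43 (median 0). The ranges overlapped in both captures, and the middle tertile lay below the low tertile rather than between the classes (means 2.50 against 2.64 in March and 0.63 against 0.92 in April). The difference was 1.34 and 1.64, 1.49 ± 0.55 (SE). Its Spearman rho with Cd69 over the cells was -0.04 in March and 0.31 in April. Arhgef1, a guanine nucleotide exchange factor needed for lymphocyte migration, was lower in both, at -2.32 and -1.03. Its medians were 1.95 in high and 4.48 in low cells of March and 1.40 and 4.21 in April.

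**Figure D4:**
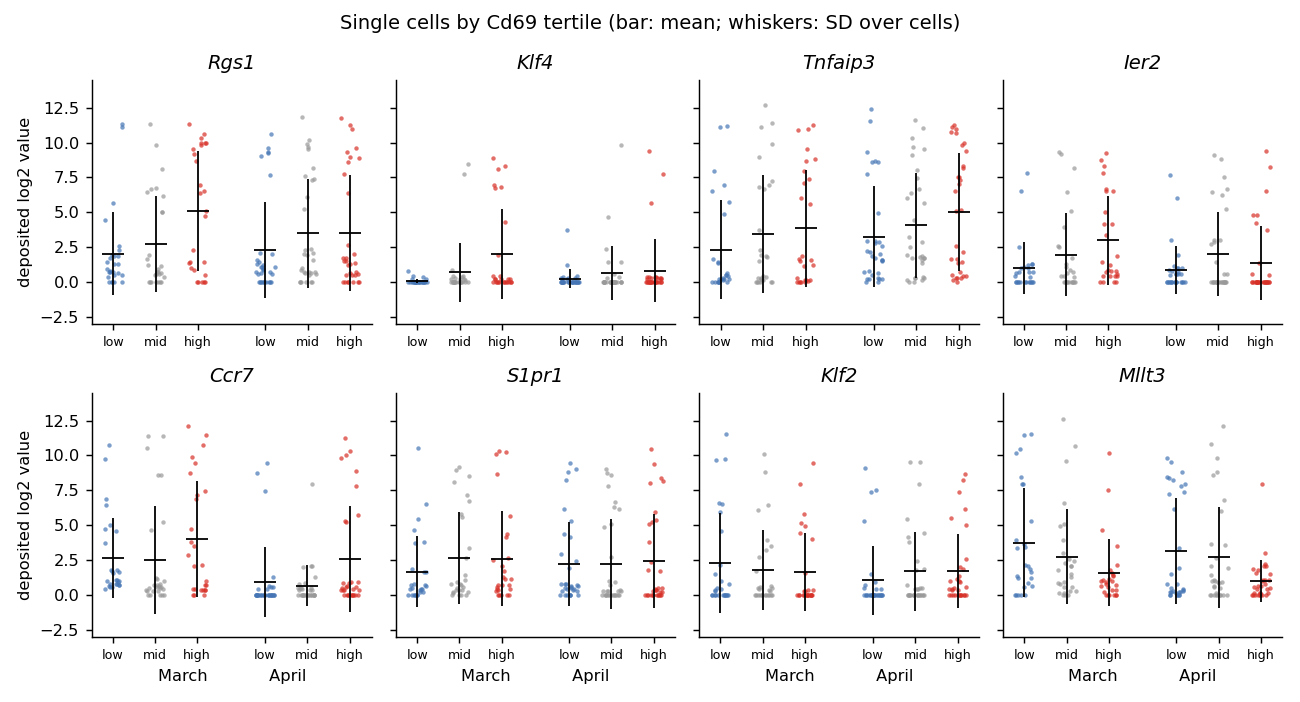
Deposited log2 values (vertical axis) of 8 genes in single cells by Cd69 tertile and capture (horizontal axis); each point is a cell, the bar is the mean and the whiskers are the SD over cells. Every gene overlaps between the tertiles, Klf4 in March low cells stays at or under 0.76, and the Mllt3 means step down from low to high in both captures.

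The coinhibition list, which holds inhibitory receptors along with the transcription factors Tox, Tox2 and Maf and the ectoenzymes Entpd1 and Nt5e, was higher in Cd69-high cells for 13 of 13 genes tested in March and 8 of 13 in April, against 63.7% and 46.8% of all genes. Of the 13, 8 were higher in both captures (61.5%) and 0 lower in both, against 29.9% and 19.2% of all genes. The list's medians were 0.51 in March and 0.42 in April. In the Apr21 run alone the list's median was -0.02, against 0.54 to 0.79 in the other 3 runs. Ctla4, the inhibitory receptor for CD80 and CD86, had medians of 1.65 in high and 0.98 in low cells of March and 3.81 and 1.63 in April, with differences of 2.56 and 0.42. Cd200 differed by 1.78 and 0.63, and Entpd1, the ATP-degrading enzyme CD39, by 0.43 and 1.2 with means ordered low, middle, high in both. Of 23 costimulation and activation genes 16 were higher in March and 13 in April. In both captures 8 were higher (34.8%, against 29.9% of all genes) and 2 lower (8.7%, against 19.2%). The list's medians were 0.33 in March and 0.18 in April, against 0.16 and -0.03 for all genes. Its median over both captures, 0.05, was close to the 0.06 of all genes. By run the list's median was 1.06 in Mar1 and between 0.01 and 0.19 in the other 3. Icos, a CD28 relative of helper T cells, ran in March from 0.16 to 13.08 in high cells (median 6.09) and from 0.22 to 11.28 in low cells (median 1.95). In April it ran from 0.30 to 11.87 (median 7.31) and from 0.48 to 11.58 (median 6.57). Most cells of all classes carried Icos, and the classes differed in how high the middle of the range lay, more so in March. Its difference was 2.70 and 0.52. Cd5, an inhibitor whose level follows the strength of antigen receptor signals, differed by 1.44 and 1.74, and Tnfrsf4, the receptor OX40, by 1.68 and 0.88. Il2ra, the high-affinity interleukin 2 receptor chain, differed by 0.61 and 0.62.

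Lists of helper subsets held genes of both directions. Of 13 genes of Th1, Th2 and Th17 cells, 4 were higher and 3 lower in both (30.8% and 23.1%). These shares lay near the 29.9% and 19.2% of all genes. Gata3, the Th2 factor, ran in April from 0.20 to 10.19 in high cells (median 5.22) and from 0 to 8.26 in low cells (median 1.42). In March it ran from 0.19 to 9.52 (median 3.45) and from 0 to 10.31 (median 2.34). The April classes were further apart than the March ones, with differences of 2.06 and 0.57. Il4, the Th2 and follicular helper cytokine, reached a linear value of 1 in 3 high and 4 low cells of March and in 6 and 3 of April, and differed by 0.77 and 0.65. Stat4, the interleukin 12 signal transducer, differed by -0.95 and -0.53. Of 12 regulatory T cell genes 7 were higher in both (58.3%) and 1 lower in both, against 29.9% and 19.2% of all genes. Among the 7, Il2ra, Ctla4, Tnfrsf4 and Itgae also stand in the costimulation, coinhibition or residency lists, so this share is not a separate result. By run the list's median was 1.10 in Mar1, 0.34 in Mar17, 0.17 in Apr13 and 0.02 in Apr21. Nrp1, a surface receptor of thymus-derived regulatory cells, differed by 0.83 and 1.29. Foxp3, which defines that lineage, was the member lower in both, at -0.38 and -0.04, and reached a linear value of 1 in 2 high and 2 low cells of March and in 0 of either class in April. Of 18 follicular helper genes 7 were higher and 2 lower in both (38.9% and 11.1%, against 29.9% and 19.2% of all genes). Among these 7, Icos, Btla, Il4, Tox2, Cd200 and P2rx7 also stand in other lists, so this share is not a separate result. By run the follicular median was 0.71 in Mar1, 0.24 in Mar17, 0.67 in Apr13 and -0.34 in Apr21. Of 23 regulators of quiescence and memory 6 were higher and 2 lower in both (26.1% and 8.7%, against 29.9% and 19.2%). Their medians were 0.03 and 0.14, against 0.16 and -0.03 for all genes. Foxp1, a factor that keeps naive cells quiescent, differed by 2.28 and 0.82. Pik3ip1, an inhibitor of PI3 kinase, differed by 1.68 and 0.45, and Id3 by -0.62 and -1.12.

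Interferon response genes, induced by a cytokine that also induces Cd69, did not share a direction in March and were mostly lower in Cd69-high cells of April, and none passed. Of 39 tested, 20 were higher in March and 8 in April; 17 were lower in both captures (43.6%, against 19.2% of all genes) and 6 higher in both (15.4%, against 29.9%), with medians of 0.06 in March and -0.38 in April. When cells with any Cd69 were set against cells at 0 the counts turned round, with 9 higher in both, 5 lower in both and a median of 0.03. The median over both captures was -0.13 for the tertiles and -0.65 on the log2 of mean linear values. By run it was -0.48 in Apr13, where 12 were higher, and between -0.14 and 0.04 in the other 3, where 18 to 21 were higher. Averaged over the 39 genes in each cell, the highest values were in low cells of both captures, 6.06 in March and 6.99 in April, against 3.91 and 3.47 among high cells. The medians differed little, 1.81 in high and 1.91 in low cells of March and 1.63 and 1.82 in April. Zbp1, a sensor of Z-form nucleic acids, reached a linear value of 1 in 1 high and 5 low cells of March and in 3 and 8 of April, and differed by -1.13 and -0.73. Dtx3l, a ubiquitin ligase that works with Parp9, differed by -1.78 and -1.16, and Oasl2 by -0.46 and -0.77. Ifit2, an RNA-binding inhibitor of translation, went the other way: it reached a linear value of 1 in 4 high and 0 low cells of March and in 3 and 0 of April, and differed by 0.72 and 0.28. Irf7, the master regulator of the response, differed by -0.37 and -0.31, with a value of 0.04 without the Mar1 run.

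The antigen receptor complex and its proximal signalling genes gave opposite medians, 0.46 in March and -0.17 in April. Of 31 tested, 5 were higher and 4 lower in both (16.1% and 12.9%), against 29.9% and 19.2% of all genes. Dgkz, the diacylglycerol kinase that limits receptor signals, differed by 1.0 and 1.47, and Ubash3a, a phosphatase that restrains them, by 0.76 and 1.43; both were ordered low, middle, high in each capture. The adaptor Lat differed by -1.25 and -0.86 and Cd247, the zeta chain, by -0.93 and -1.18.

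The ribosomal, oxidative phosphorylation, glycolysis and actin lists were higher in Cd69-high cells of March, while the mitochondrially encoded genes were lower. In that capture the Cd69-high cells also had more genes detected (medians 5415 and 5078) and a lower mitochondrial share (6.76% and 8.67%). Ribosomal protein genes had medians of 0.85 in March and 0.31 in April, against 0.16 and -0.03 for all genes. Of 20 tested, 14 were higher in both (70.0%), 0 lower in both and 7 ordered in both. Over all genes those shares were 29.9%, 19.2% and 4.15%. By run the ribosomal median was 1.34 in Mar1, 0.29 in Mar17, -0.08 in Apr13 and 0.56 in Apr21. The median cell did not show it in March: averaged over the 20 genes it was at 9.95 in the high and 10.02 in the low class, while the lowest cell was at 6.62 and 2.67. Oxidative phosphorylation genes had medians of 0.71 and -0.14 and glycolysis genes of 0.84 and -0.02. By run the oxidative phosphorylation median was 1.90 in Mar1, 0.36 in Mar17, -0.55 in Apr13 and 0.13 in Apr21. For glycolysis it was 0.72, 0.67, -0.03 and -0.15 in the same runs. Cox4i1, a subunit of cytochrome c oxidase, differed by 1.52 and 1.96, and Aldoa, a glycolytic enzyme, by 2.73 and 0.40. Actin and trafficking genes had medians of 0.92 and -0.30, of opposite sign in the captures. By run they were at 1.61 in Mar1, 0.85 in Mar17, -0.49 in Apr13 and -0.17 in Apr21. The 13 mitochondrially encoded genes had medians of -0.65 and 0.27, and -1.82 in the Mar1 run alone. Whether depth or RNA quality accounts for any of these March values was not tested.

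Proliferation genes were higher in both captures for 11 of 20 (55.0%) and lower in both for 1. Over all genes those shares were 29.9% and 19.2%. The proliferation medians were 0.75 in March and 0.25 in April, and 0.07 in Apr13 alone. Rrm2, a subunit of the enzyme that makes deoxynucleotides, reached a linear value of 1 in 6 high and 0 low cells of March and in 5 high and 6 low cells of April. Of 12 heat shock and dissociation genes, 6 were higher in both (50%) and 1 lower in both, against 29.9% and 19.2% of all genes. The 12 genes, which tissue handling can induce along with immediate early genes, had medians of 0.75 and 0.24, and -0.21 in Apr13 alone. Their summed linear level had a median of 10177 in high and 8841 in low cells of March (ranges 1969 to 52272 and 249.6 to 25696) and of 9852 and 7889 in April (2151 to 28783 and 853 to 27532). The part of the heat shock and dissociation genes in the values of the immediate early genes was not tested. Hspa5, the chaperone BiP of the endoplasmic reticulum, was the member with the smallest p: its medians were 8.83 in high and 3.71 in low cells of March and 8.52 and 5.97 in April, and it differed by 2.80 and 1.26.

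**Figure D5:**
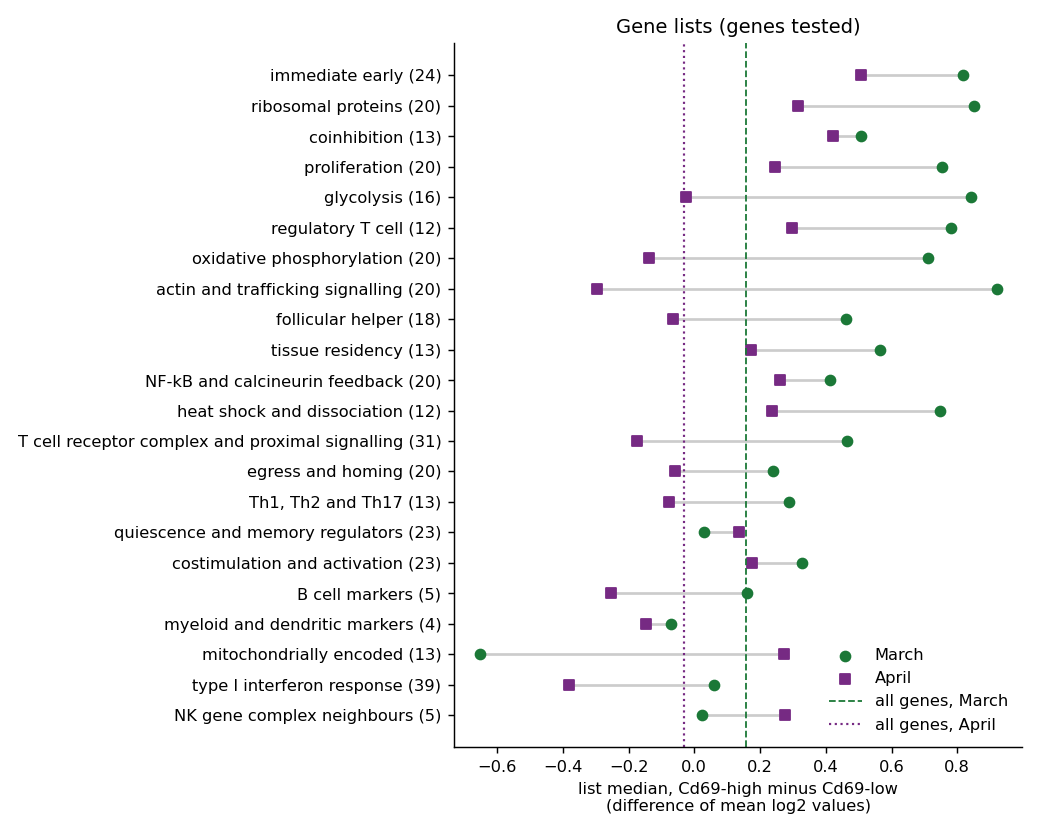
Median over the tested genes of each list (number in brackets) of the Cd69-high minus Cd69-low difference of mean log2 values (horizontal axis), March as circles and April as squares; dashed and dotted lines are the medians of all genes, 0.16 and -0.03. Immediate early genes lie to the right in both captures (0.82 and 0.51), and each interferon value lies left of the line of its own capture. Neither position is particular to its list. Others to the right in both include ribosomal proteins (0.85 and 0.31) and coinhibition (0.51 and 0.42). Myeloid markers (-0.07 and -0.15) also lie left of both lines.

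Markers of other cell types were low in the median cell of both classes. Of 12 B cell markers 6 were in the table, and their summed linear level had medians of 6.94 in high and 9.24 in low cells of March and 5.48 and 9.79 in April. Single cells reached 27851 in the high and 2479 in the low class of March, and 3875 and 4866 in April. Cd79a and Ms4a1, which define B cells, were not analysed here. The 4 myeloid markers in the table summed to medians between 0.88 and 1.87 and the 5 CD8 and NK markers to medians between 0 and 0.40. Single cells reached a CD8 and NK sum of 1377 in the high and 154 in the low class of March. In April they reached 43.8 and 1602. The highest myeloid sum of a single cell was 240, in the March low class. Of the gene neighbours of Cd69 in the natural killer gene complex 5 were tested, and 2 were higher and 1 lower in both. Those shares were 40% and 20%, against 29.9% and 19.2% of all genes. Clec2d, a lectin ligand of the receptor Klrb1, differed by -0.23 and -0.71 and Clec2h by 0.32 and 0.43. Cd69 itself lies on chromosome 6 from 129267325 to 129275436 (mm10, GENCODE vM21, minus strand).

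The genes whose level followed Cd69 most closely over all cells of a capture were taken as the 10 with the highest mean Spearman rho. Among them were Utp6 (0.43 over the 82 cells of March and 0.19 over the 96 of April), Zfr (0.50 and 0.12), Stard3 (0.28 and 0.26), Ubald2 (0.27 and 0.28), Hspa5 (0.31 and 0.22), Atp2a2 (0.27 and 0.26), Cox5b (0.40 and 0.13) and 4833420G17Rik (0.21 and 0.32). Utp6 is a factor of ribosome biogenesis and Atp2a2 a calcium pump of the endoplasmic reticulum. No rho printed here exceeded 0.50, and the points of a capture share library preparation and depth. The ranking used the Cd69 values and cells that set the classes. The return of Utp6, Zfr, Cox5b and Hspa5 is therefore no separate evidence. Of the immediate early genes, Klf4 had 0.32 and 0.11 and Fos 0.11 and 0.09.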

How the data were processed

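Single 2W1S-specific CD4 T cells of a March and an April capture were analysed from 1 deposited table of log2 values, 12432 genes by 178 cells. Per the submitters' processing notes the build was mm10; aligner and counter: not given in the sources used here. Linear values (2 to the power of the deposited log2 value, minus 1) summed to between 892206 and 979888 per cell, so the authors' unit was taken, from the values, to be log2 of TPM with a pseudocount of 1 added; read depth is unknown. Column names gave each cell's capture and 1 of 4 runs; 0 columns were left unmapped, and 12163 Ensembl IDs had a symbol.

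Mean log2 values per capture and Cd69 class made 4 pseudobulk libraries, tested with limma 3.58.1 (R 4.3.3; mean-variance trend, capture as a block, 1 residual degree of freedom, two-sided, Benjamini-Hochberg adjustment at 0.05) over genes above 0 in at least 10% of cells, leaving Cd69 out. The pairing comes from the cells: each capture gives both classes. With 1 residual degree of freedom per gene, beside 19.4 drawn from all genes, the test rests on the variance shared across genes. The script was tested on simulated data. No cell was removed and no doublet caller was run. Other steps used Python 3.11.15, numpy 2.4.6, pandas 2.3.3 and SciPy 1.17.1. Promoters come from RefSeq GRCm38.p6 and gene positions from GENCODE vM21.

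The comparison, the 24 gene lists and the genes named were chosen with earlier results of these data known. Genes were named by rule: with none past the threshold, the 8 per direction with the smallest p and the same sign in both captures, 28 fixed regulators and markers, up to 3 per list and direction by p, and the 10 with the highest mean rho with Cd69; not every one is reported here. Alternatives changed the class boundaries, pseudocount, filter, scaling, block and cells used. Leaving out the Mar1 run was chosen after seeing the data.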

Additional observations from a re-analysis of the deposited data

How the results depend on the processing

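In all 17 alternatives to the fit, 0 genes passed in either direction, with a smallest adjusted p from 0.159 (quantile normalization) to 1.0 (limma, Benjamini-Hochberg). Without the replicate block, where the pairing of classes within a capture is ignored, 0 genes passed, 298 higher and 103 lower genes had an unadjusted p under 0.05, and all 78 named genes kept their sign. Leaving out a capture leaves 1 sample per class and gives a value with no test. The share of genes of the same sign in both captures was 51.4% for Cd69 above 0 against at 0, 50.4% for a linear value of at least 1 against below and 50.2% on the log2 of mean linear values. The immediate early median was above that of all genes in 15 of 15 alternatives, at 0.45 for a linear value of at least 1 against below, 0.48 with a pseudocount of 10, 1.02 with one of 0.1 and 1.17 on the log2 of mean linear values; with 1 capture left out it ranged from 0.51 to 0.82. The interferon median was above that of all genes in 0 of 15, reached -0.65 on the log2 of mean linear values, and ranged from -0.38 to 0.06 with 1 capture left out. Neither count was particular to its list. The NF-kB, residency, coinhibition, regulatory T cell, actin and heat shock lists were also above in 15 of 15. So were the proliferation, glycolysis, oxidative phosphorylation and ribosomal lists, and the myeloid markers were above in 0 of 15. All alternatives draw on the same cells.

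Differences that changed sign were as follows; the cause was not tested. For Cd69 above 0 against at 0 they were 0.021 for Birc3, 0.39 for Clec2d, 0.095 for Foxp3, 0.11 for Irf7, 0.31 for Jun, -0.32 for Klf2 and -0.47 for Nfkbia. For a linear value of at least 1 against below it was -0.043 for Nfkbia. With the upper and lower 50% of cells they were 0.16 for Birc3, -0.42 for Il7r, -0.11 for Klf2 and -0.35 for S1pr1, and with the upper and lower 25% 0.032 for Birc3 and -0.051 for Klf2. Ranking within runs gave -0.18 for Il7r and 0.25 for Jun, and ranking within strata of genes detected 0.18 for Jun and -0.22 for Klf2. Runs as blocks gave 0.028 for Jun. A pseudocount of 10 gave -0.11 for Klf2, one of 0.1 gave 0.10 for Jun, and the log2 of mean linear values gave -0.37 for Il7r, 0.41 for Jun and -1.0 for Klf2. Without the 3 cells of high mitochondrial share Il7r was at -0.0061, and without Mar1 Il7r was at -1.14, Irf7 at 0.041 and Jun at 0.10. With 1 capture left out the ranges were -0.67 to 2.19 for Dusp1, -0.70 to 0.97 for Il7r, -0.24 to 0.11 for Jun and -0.62 to 0.67 for Klf2.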

Other observations

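The middle tertile, which the tests did not use, was set beside the low tertile in the same way. For the immediate early genes the median of middle minus low was 0.16 in March and 0.28 in April, against 0.82 and 0.51 for high minus low. For the oxidative phosphorylation genes it was 0.61 and 0.12, and for the actin and trafficking genes 0.81 and 0.10, so in March these lists already stood near their high-class value in the middle tertile. For the coinhibition genes it was 0.46 and -0.53. For the interferon response genes it was -0.06 and -0.22. The medians over all genes were 0.10 and 0.02. None of these values was tested.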
